A study of Mus musculus with 64 samples.

Results

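The genes described here encode the proteins of the cytosolic ribosome, followed through skeletal muscle, heart, white adipose tissue (WAT) and liver of mice with 2 Pklr genotypes on 2 diets. They were chosen by symbol: Rps or Rpl followed by a number and at most one letter a, x or l, together with Rplp0, Rplp1, Rplp2 and Rpsa. Of 19521 genes in the count table, 80 had such a symbol, 31 of the small subunit (Rps) and 49 of the large subunit (Rpl, Rplp). A gene counted as a member in a tissue where its mean over the 16 libraries was at least 1 TPM (the deposited abundance value, scaled to library size and corrected for transcript length). That left 78 members in muscle, 78 in heart, 77 in WAT and 77 in liver, and 77 were members in all 4 tissues.

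The cytosolic ribosome reads messenger RNA into protein, and each copy needs one small and one large subunit whose proteins are made in matched amounts. Their mRNAs are short and abundant, and many start with a C followed by a run of pyrimidines, the 5' terminal oligopyrimidine (TOP) start through which the kinase mTOR and the RNA-binding protein Larp1 adjust their translation. Striated muscle is known for a paralogue of its own, Rpl3l, that takes the place of Rpl3 in part of its ribosomes. Ribosomal protein genes also have many processed pseudogenes, so short reads can often match more than one place.

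The mice were male C57BL/6J (C57BL/6 in the sample labels), either Pklr mutants (Pklr-/-, labelled KO) or wild type (CTRL). Pklr encodes the pyruvate kinase of liver and red blood cells. Each genotype received a high-sucrose diet (HSD) or chow for 8 weeks from 8 weeks of age, and the tissues were taken at 16 weeks from 4 mice per group. The 4 groups, labelled KO on HSD, labelled KO on chow, CTRL on HSD and CTRL on chow, gave 4 libraries each in every tissue, 64 in all. The labels do not say whether the same mouse gave the same-numbered library of different tissues.

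The libraries held 5724366 to 12188623 estimated counts. The targeted gene went against its label: liver Pklr averaged 405 ± 63.4 TPM in labelled KO mice on HSD and 212 ± 55.2 TPM in labelled KO mice on chow, against 213 ± 44.8 TPM in CTRL mice on HSD and 113 ± 37.1 TPM in CTRL mice on chow (SD, n = 4 each). Directions below therefore follow the labels, and "labelled KO" is used throughout. The summed markers of each tissue were highest in that tissue: skeletal muscle markers reached 21767 to 30812 TPM in muscle, heart muscle markers 11583 to 17724 TPM in heart, adipocyte markers 28336 to 38975 TPM in WAT and hepatocyte markers 33610 to 93625 TPM in liver. In one muscle library, labelled KO on chow replicate 2, the heart muscle markers summed to 1193 TPM, against 29 to 53.3 TPM in the other muscle libraries. Mitochondrially encoded transcripts averaged 47.5% of TPM in muscle, 64.1% in heart, 21.7% in WAT and 18.2% in liver, which lowers every nuclear gene's TPM in muscle and heart.

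The starts of the genes are shown first because the TOP start is the feature these mRNAs are best known for. The RefSeq promoter table (GRCm38.p6) matched 60 of the 80 genes. A C at the annotated start followed by at least 4 pyrimidines was found in 13 of them (21.7%), against 813 of 27025 genes (3.01%). A start annotated a few bases away from the true one would be missed by this search. The sequence CCGGAA, searched on both strands of the 300 bases of the table (250 before the start and 50 after), was present in 33 of the 60 (55%), against 16.7% of all genes. AAGATGG was present in 9 (15%), against 7.28%, and TATAAA in 6 (10%), against 15.7%. The first 4 sequences below have a TOP-like start, the next 3 have a pyrimidine run that begins with T and belong to genes that passed a test in WAT, and the last 2 are the paralogues Rpl3l, near 0 outside muscle and heart, and Rps27l, a member in all 4 tissues. Each has 20 bases before the start and 20 from the start on, with the pyrimidine run from the start in capitals. On GRCm38.p6 they lie at chr4:86857348-86857387 (minus strand), chr11:114668560-114668599 (plus), chr7:141447631-141447670 (plus), chr3:90213629-90213668 (minus), chr14:24490658-24490697 (plus), chr7:109519175-109519214 (plus), chr8:123102330-123102369 (plus), chr17:24727806-24727845 (plus) and chr9:66946066-66946105 (plus), in the order printed.
Rps6: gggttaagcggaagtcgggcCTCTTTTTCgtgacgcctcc
Rpl38: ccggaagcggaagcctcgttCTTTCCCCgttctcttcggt
Rplp2: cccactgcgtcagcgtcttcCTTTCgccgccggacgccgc
Rps27: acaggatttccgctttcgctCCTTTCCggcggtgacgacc
Rps24: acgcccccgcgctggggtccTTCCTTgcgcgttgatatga
Rpl27a: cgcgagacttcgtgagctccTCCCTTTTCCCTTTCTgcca
Rpl13: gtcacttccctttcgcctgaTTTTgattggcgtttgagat
Rpl3l: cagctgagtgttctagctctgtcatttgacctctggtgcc
Rps27l: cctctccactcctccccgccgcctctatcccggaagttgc
For Rpl3l, Rps27l and Rps24, which have more than one annotated start in the table, the first is shown. Neither Rpl3l nor Rps27l had a pyrimidine at that start, while the run was 9 bases long in Rps6 and 16 in Rpl27a.

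Summed over the members, ribosomal protein mRNA took the largest share of TPM in WAT and the smallest in heart. Shares are of the summed TPM of the deposited genes. That sum was 846808 to 896610 in muscle, 885311 to 912482 in heart, 816010 to 844600 in WAT and 910989 to 926964 in liver. It was lowest in WAT, so the same TPM of the members gives a larger share there. The share by library was 2.42 to 3.86% in muscle (median 3.02%), 1.39 to 2.28% in heart (median 1.96%), 4.19 to 6.55% in WAT (median 5.53%) and 1.87 to 3.04% in liver (median 2.52%). With the mitochondrially encoded genes left out of the total, the shares were 5.09 to 6.58% in muscle, 4.68 to 5.76% in heart, 5.4 to 7.82% in WAT and 2.29 to 3.75% in liver. On that total every liver library lay below every library of the other tissues, whereas with all genes counted the heart libraries were the lowest and overlapped those of liver. The 31 small subunit genes supplied a steady part of the sum, 45.5 to 47.5% in muscle, 47.1 to 48.8% in heart, 44.1 to 45.5% in WAT and 44 to 45.7% in liver. In bulk tissue, more ribosomal protein mRNA per cell and more cells of a type rich in it cannot be told apart.

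**Figure D1:**
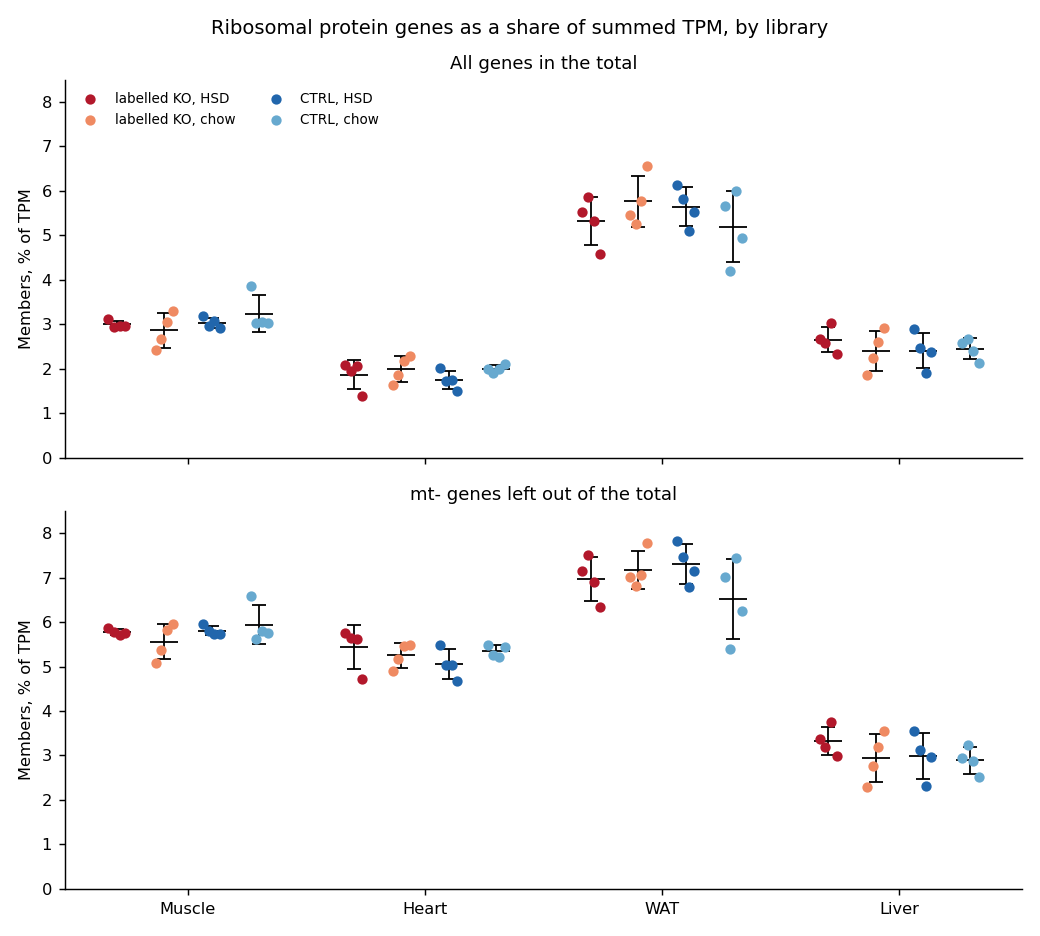
Members' share of summed TPM in each of 64 libraries, with all genes in the total (upper panel) or without the mitochondrially encoded genes (lower panel). Points are libraries, and bars are the group mean ± SD (n = 4). Heart is lowest in the upper panel and lies above liver in the lower panel, at 4.68 to 5.76% in heart and 2.29 to 3.75% in liver.

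Within a tissue the members spanned a wide range of TPM. The highest in muscle were Rps27 (1004 ± 144 TPM), Rps24 (899 ± 100 TPM) and Rps29 (879 ± 200 TPM), all of the small subunit (SD, n = 16). In heart Rps27 (650 ± 69.1 TPM) and Rps24 (635 ± 68.6 TPM) were the highest. In WAT the order began with Rpl41, the shortest protein of the large subunit (1831 ± 388 TPM), followed by Rps29 (1510 ± 423 TPM) and Rps27 (1490 ± 141 TPM). In liver it began with Rps27 (789 ± 120 TPM), Rpl26 (680 ± 87.1 TPM) and Rps18 (680 ± 97.2 TPM). Rps27, a zinc-finger protein of the small subunit, was thus among the top 3 in all 4 tissues. The lowest members were Rpl12, Rps16 and Rpl5 in every tissue. Rpl12 averaged 2.01 ± 0.671 TPM in muscle, 1.15 ± 0.571 TPM in heart, 3.74 ± 1.51 TPM in WAT and 2.13 ± 0.932 TPM in liver. Rpl5, which carries the 5S RNA into the large subunit together with Rpl11, averaged 8.75 ± 1.54, 4.9 ± 1.14, 7.21 ± 2.25 and 9.47 ± 2.13 TPM in the same 4 tissues, while Rpl11 averaged 121 ± 13.5, 85.5 ± 14.9, 302 ± 37.1 and 140 ± 19.6 TPM. Rpl12 in heart was the member nearest to the minimum of 1 TPM. Just outside it were Rpl39l, at 0.263 TPM in muscle and 0.171 TPM in heart, and Rpl10l, at no more than 0.0409 TPM in any tissue. Both are known for expression in testis. Their counterparts were abundant: Rpl39, which lines the exit tunnel, averaged 206 ± 16.6 TPM in muscle, 126 ± 17.6 TPM in heart, 470 ± 44.8 TPM in WAT and 205 ± 28.7 TPM in liver, and Rpl10 averaged 150 ± 32.5, 106 ± 40.5, 355 ± 71.3 and 274 ± 68.1 TPM in the same tissues. Rps4x, the X-linked small subunit protein, averaged 411 ± 39.2, 295 ± 24.6, 907 ± 68 and 413 ± 63.8 TPM.

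Sequence shared with pseudogenes is common among these genes, whether low or high. Cutting every transcript of the GENCODE M21 annotation into 31-base words, 79 of the 80 genes shared words with another gene, 26 shared at least 50% of theirs, and the median was 42.7%. The lowest members lay near that median, with 49.8% for Rpl12, 44.5% for Rps16 and 44.7% for Rpl5. Counting only other genes that have deposited values, the share was 0% for Rpl12, 6.39% for Rps16 and 0% for Rpl5. It was 69.3% for Rps12 and 75.8% for Rpl10. For Rpl12 and Rpl5 a gene and its copies therefore cannot be summed here. These percentages do not show how reads were divided between a gene and its copies. Whether shared reads lowered the values of these genes was not tested. The only gene that shared no words with any gene of the annotation was Rpl3l. The transcript index that the authors used is not given in the sources used here, so the split between a gene and its copies is uncertain. Rps12 is an example: it shares 69.3% of its words, most with the pseudogene Rps12-ps3. In liver Rps12 had 36.1, 39.6, 14.2 and 14.6 TPM in labelled KO mice on HSD and 6.16, 13, 0 and 13.5 TPM in labelled KO mice on chow, against 8.05, 19.9, 1.15 and 9.46 TPM in CTRL mice on HSD and 21, 29, 29.5 and 15.7 TPM in CTRL mice on chow. The labelled KO libraries on HSD were thus all above those on chow. Rps12-ps3 had 300, 341, 243 and 235 TPM in labelled KO livers on HSD and 195, 201, 421 and 411 TPM in labelled KO livers on chow. The gene and its copy together averaged 306 ± 63 and 316 ± 124 TPM in those same 2 groups (SD, n = 4 each), a difference well within their spread. Rps12 took 0 to 12.4% of that sum over all 64 libraries. Rpl10 shares 75.8% of its words, most with the pseudogene Rpl10-ps3. Rpl10 and that copy together averaged 514 ± 53.9 TPM in muscle, 329 ± 46.9 TPM in heart, 1269 ± 91 TPM in WAT and 962 ± 123 TPM in liver (SD, n = 16).

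The spread within groups differed between tissues. The median SD within groups of log2(TPM + 1) was 0.17 for members in muscle, 0.24 in heart, 0.18 in WAT and 0.25 in liver, against 0.20, 0.20, 0.23 and 0.25 for all genes with a mean of at least 1 TPM. Rpl4, a large subunit protein, varied least in muscle (0.10), WAT (0.07) and liver (0.12). Rps12 varied most in heart (1.26), WAT (0.95) and liver (1.22), and Rpl36, which shares 94.1% of its words with other genes, varied most in muscle (0.59).

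The clearest difference between tissues was the exchange of Rpl3 for Rpl3l in striated muscle. Rpl3 and Rpl3l encode alternative forms of the same large subunit protein beside the peptidyl transferase centre. Rpl3l (GRCm38 chromosome 17, 24727820 to 24736143) lay between 209 and 269 TPM in muscle (median 232) and between 74.5 and 135 TPM in heart (median 104). In WAT it lay between 0 and 0.755 TPM, and in liver between 0 and 0.364 TPM, so it was no member there. Rpl3 (chromosome 15, 80077791 to 80091868) went the other way, with 60 to 81.7 TPM in muscle (median 72.4), 63.5 to 98.2 TPM in heart (median 81.7), 402 to 527 TPM in WAT (median 446) and 165 to 306 TPM in liver (median 227). Rpl3l made up 73.4 to 81.2% of the summed TPM of the pair in muscle and 50.7 to 62.6% in heart, and at most 0.166% in WAT and 0.194% in liver. The muscle and heart libraries did not overlap in that percentage, and every library of both was above 50%. Rpl3 shares words with other genes and Rpl3l does not, and the part of this in the percentage was not tested.

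In edgeR's quasi-likelihood test on all 64 libraries, averaged over genotype and diet, Rpl3l was higher in muscle than in heart by 0.99 ± 0.07 on the log2 scale (SE, adjusted p = 2.35e-18), and Rpl3 was lower by 0.38: its log2 fold change was -0.38 ± 0.05 (adjusted p = 3.14e-10). It was the single member lower in muscle than in heart. Against liver, the log2 fold change of Rpl3 was -1.85 ± 0.05 in muscle (adjusted p = 1.47e-39) and -1.47 ± 0.05 in heart (adjusted p = 7.53e-35). Rpl3l passed the test in both tissues against liver, where no fold is given because its level there was near 0. Rpl3 shares 69.7% of its 31-base words with other genes, the most with Rpl3-ps1, whereas Rpl3l shares none.

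**Figure D2:**
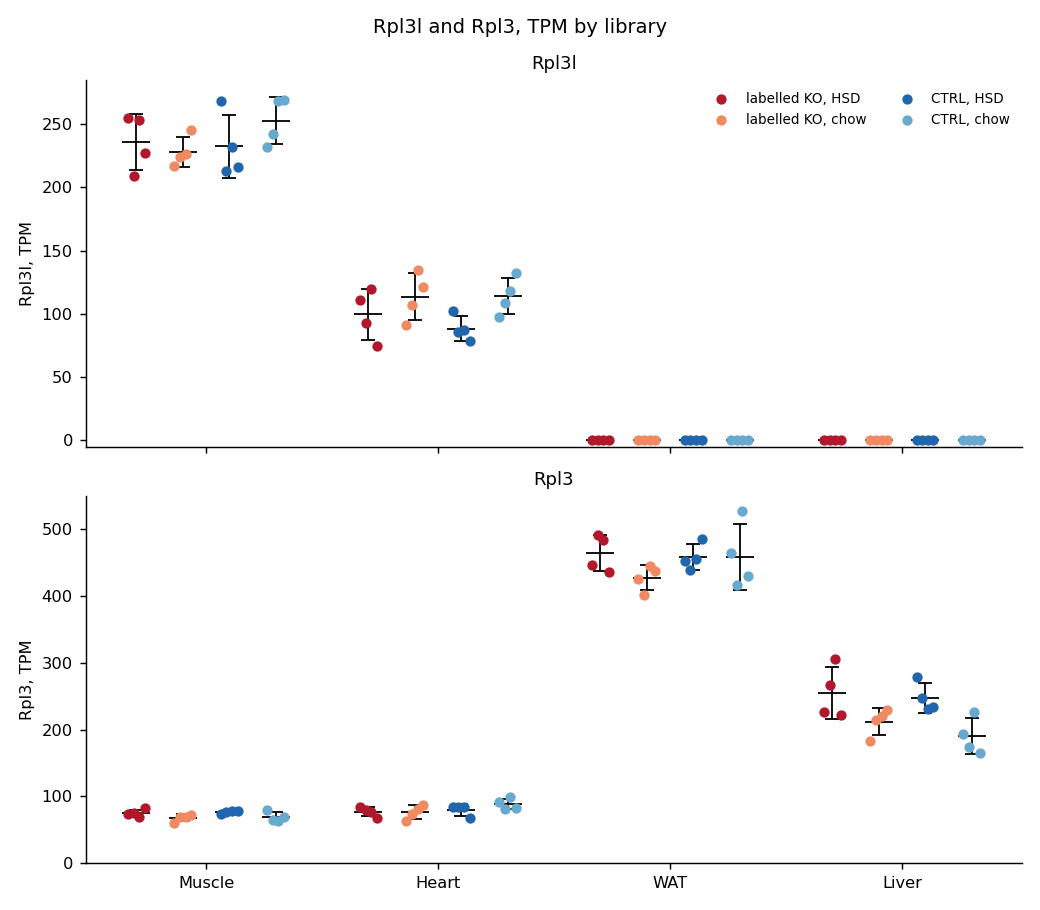
TPM of Rpl3l (upper panel) and Rpl3 (lower panel) in each library, by tissue and group. Points are libraries, and bars are the group mean ± SD (n = 4). Rpl3l lies at 209 to 269 TPM in muscle and 74.5 to 135 TPM in heart and near 0 in WAT and liver, while Rpl3 lies under 100 TPM in both striated tissues.

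Neither genotype nor diet moved the pair past the test. Rpl3l had 255, 209, 253 and 227 TPM in muscle of labelled KO mice on HSD and 217, 224, 226 and 245 TPM in labelled KO mice on chow, against 268, 213, 232 and 216 TPM in CTRL mice on HSD and 232, 242, 268 and 269 TPM in CTRL mice on chow. All 4 groups overlapped. The labelled KO library with heart muscle markers, replicate 2 on chow, was at 224 TPM, inside the range of the others. In heart Rpl3l had 111, 92.7, 120 and 74.5 TPM in labelled KO mice on HSD and 91.5, 107, 135 and 121 TPM in labelled KO mice on chow, against 102, 85.9, 87 and 78.3 TPM in CTRL mice on HSD and 97.6, 109, 118 and 132 TPM in CTRL mice on chow. The HSD and chow groups overlapped in both genotypes. In CTRL hearts the log2 fold change of HSD against chow was -0.25 ± 0.11 (SE, adjusted p = 0.784 by edgeR), and in CTRL muscle it was -0.19 ± 0.09 (adjusted p = 0.335).

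In edgeR's test, muscle carried more of nearly all ribosomal protein mRNAs than heart. Of 78 members, 73 were higher in muscle and 1 was lower (94.9% called), against 32.8% of 14592 tested genes higher and 35.8% lower. The median log2 fold change was 0.44 over the members and -0.03 over all genes. The 4 that did not pass were Rpl13a, Rpl27a, Rps10 and Rps16. Rplp0, the stalk protein to which Rplp1 and Rplp2 attach, had 589 to 913 TPM in muscle (median 803) and 195 to 466 TPM in heart (median 389), with no overlap, and its log2 fold change was 0.89 ± 0.08 (adjusted p = 1.52e-14). Rplp1 and Rplp2, which bind the elongation factors, were higher by 0.82 ± 0.22 (adjusted p = 0.000721) and 0.62 ± 0.17 (adjusted p = 0.00133). The small subunit proteins Rps13 and Rps20 were higher by 1.05 ± 0.08 (adjusted p = 1.18e-17) and 1.02 ± 0.10 (adjusted p = 8.19e-13). Rps13 ranged from 246 to 493 TPM in muscle and from 101 to 172 TPM in heart, again apart. Rpl4 had the smallest p of all members, at 0.65 ± 0.04 (adjusted p = 9.59e-22). Rps6, the substrate of S6 kinase, was higher by 0.26 ± 0.07 (adjusted p = 0.00077). On log2(TPM + 1) with limma, which keeps the mitochondrially encoded share in the total, the members' median was 0.67 against 0.14 over all genes. With the mitochondrially encoded genes left out of the total, the members' summed share was 5.09 to 6.58% in muscle and 4.68 to 5.76% in heart. The libraries of the tissues overlapped in that share.

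The other genes of translation went the same way between muscle and heart. Among 7 ribosomal proteins whose symbols fall outside the rule, such as Fau and Rack1, 6 were higher and 0 lower, with Rpl36al at 0.74 ± 0.06 and Rps3a1 at 0.38 ± 0.05. Of 35 translation factors, 25 were higher and 2 lower (median 0.36), with Eef1g, an elongation factor subunit, at 1.27 ± 0.04. Of 40 ribosome biogenesis factors, 31 were higher and 1 lower (median 0.41), with Rrp12 at 1.34 ± 0.08, while Polr1e, a subunit of RNA polymerase I, was lower at -1.90 ± 0.11. Of 15 regulators, 10 were higher and 3 lower, with the 4E-binding protein Eif4ebp2, a target of mTOR, at 1.17 ± 0.05 and Cnbp, which binds TOP mRNAs, at 0.98 ± 0.04.

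Heart against liver showed the members lower in edgeR's test. Of 78, 1 was higher (Rpl3l) and 58 were lower, against 43.4% of tested genes higher and 40.1% lower, and the median log2 fold change was -0.41 over members and 0.07 over all genes. With TMM run without members and mitochondrial genes, 2 were higher and 57 lower. On log2(TPM + 1), which keeps the mitochondrially encoded share in the total, the median was -0.45. The direction depended on the total used. With the mitochondrially encoded genes left out, the members' share of TPM was 4.68 to 5.76% in heart and 2.29 to 3.75% in liver. Of the estimated counts the members took 0.685 to 0.982% in heart and 0.679 to 1.1% in liver. After Rps27l and Rpl3, the smallest p belonged to Rpl4 at -0.71 ± 0.04, Rps18 at -0.84 ± 0.06, Rpl7a at -0.67 ± 0.05 and Rpl36a at -0.94 ± 0.07 (adjusted p from 4.66e-24 to 7.54e-19). Rpl10, one of the last proteins to join the large subunit, was lower at -1.41 ± 0.11 (adjusted p = 5e-18). The stalk proteins did not pass: Rplp0 was at 0.16 ± 0.08 (adjusted p = 0.055), Rplp1 at -0.29 ± 0.22 (adjusted p = 0.215) and Rplp2 at -0.03 ± 0.18 (adjusted p = 0.91). Of the 35 translation factors 10 were higher and 21 lower, with Eef1a2, the elongation factor form of muscle and neurons, among the higher and its counterpart Eef1a1 at -3.28 ± 0.05.

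Muscle against liver split the members. Of 78, 30 were higher and 27 lower, against 43.8% and 40.8% of tested genes, and the median was 0.04 over members and 0.07 over all genes. On log2(TPM + 1) the split was 44 higher and 10 lower, with a median of 0.20 over members and 0.16 over all genes. Rplp0 led the higher ones after Rpl3l at 1.05 ± 0.08 (adjusted p = 9.69e-18), followed by Rps13 at 0.99 ± 0.08, Rps15a at 0.42 ± 0.05, Rps14 at 0.47 ± 0.06 and Rpl31 at 0.38 ± 0.06 (adjusted p from 5.25e-17 to 2.72e-08). The lower ones were led by Rpl3 and Rps27l, then Rpl7a at -0.51 ± 0.05, Rpl10 at -1.05 ± 0.10, Rpl36a at -0.53 ± 0.07 and Rps18 at -0.39 ± 0.06 (adjusted p from 3.09e-14 to 6.37e-09). Rpsa, a small subunit protein also known as a laminin receptor, was at 0.18 ± 0.10 (adjusted p = 0.08).

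The direction between WAT and liver depended on the scale. In the count test, 62 of 77 members were lower in WAT, 2 were higher (against 42.6% of tested genes in each direction) and the median was -0.44 over members and 0.01 over all genes, but on log2(TPM + 1) 75 were higher, 2 lower, and the median was 1.04 against 1.08 over all genes. Before TMM scaling the members also took more of the estimated counts in WAT, 1.13 to 1.85%, than in liver, 0.679 to 1.1%, with no overlap, so the lower values in WAT are those after scaling by TMM; with DESeq2's size factors 54 were lower and 3 higher. Relative to the median of all genes, the members were thus lower on the first scale, and 1.04 against 1.08 on the second. Rpl4, for instance, had 500 to 603 TPM in WAT (median 580) and 317 to 517 TPM in liver (median 398), yet its log2 fold change in the count test was -0.97 ± 0.04 (adjusted p = 2.88e-30). The summed markers of hepatocytes, mostly secreted-protein genes, held up to 93625 TPM of a liver library. Rplp2 was higher in WAT on both scales: it had 315 to 1156 TPM in WAT (median 742) and 69.6 to 210 TPM in liver (median 145), with no overlap, and its log2 fold change was 0.97 ± 0.17 (adjusted p = 1.44e-06). Rps19, a small subunit protein mutated in Diamond-Blackfan anaemia in people, was the other member higher in the count test, at 0.24 ± 0.07 (adjusted p = 0.000957).

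Rps27l, a paralogue of Rps27 known as a p53 target, was lower in every other tissue than in liver. It had 112 to 168 TPM in muscle (median 130), 71.7 to 99.7 TPM in heart (median 81.5), 203 to 267 TPM in WAT (median 251) and 281 to 431 TPM in liver (median 352), and every liver library was above every library of the other tissues. Against liver its log2 fold change was -1.62 ± 0.05 in muscle, -2.04 ± 0.05 in heart and -1.96 ± 0.05 in WAT (adjusted p = 2.3e-35, 8.87e-40 and 3.16e-39). Rps27 itself had 810 to 1463 TPM in muscle, 536 to 838 TPM in heart, 1255 to 1708 TPM in WAT and 573 to 1004 TPM in liver. Its log2 fold changes were 0.19 ± 0.06, -0.21 ± 0.06 and -0.51 ± 0.06 for the same 3 comparisons, so they were smaller than those of Rps27l in each. In TPM every WAT library had more Rps27 than every liver library, the same dependence on scale as above.

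The members are short genes, with a median transcript length of 704 bases (367.5 for Rpl38 to 3706 for Rps20) against 2083 bases for all genes, and 80% are under 1000 bases, against 18.4% of all genes. A library's deviation from its tissue mean was therefore regressed on log2 transcript length over the other genes. In 60 of 64 libraries the slope lay within 0.1 log2 units per log2 unit of length. The exceptions were WAT CTRL on chow replicate 2 (0.1627) and replicate 4 (0.1038), liver CTRL on HSD replicate 3 (0.1421) and muscle CTRL on chow replicate 1 (-0.1549), all of them controls. Short transcripts were low in the first 3 and high in the fourth. In the WAT library replicate 2, 0 of 77 members lay above their tissue mean (mean deviation -0.63 log2 units), and in replicate 4 it was 2 of 77 (-0.28). In the liver library it was 0 of 77 (-0.67), and in the muscle library 74 of 78 (0.37).

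**Figure D3:**
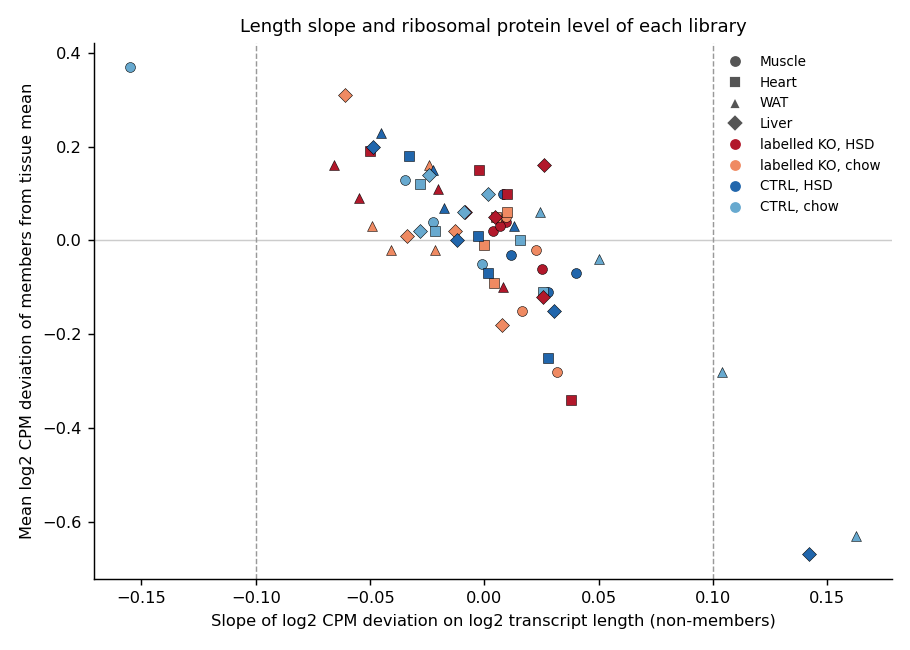
Mean log2 CPM deviation of the members from their tissue mean (y) against the slope of the other genes' deviations on log2 transcript length (x), for 64 libraries. Marker shape gives the tissue and colour the group, and dashed lines mark slopes of -0.1 and 0.1. The 3 libraries right of 0.1 lie at -0.28 to -0.67 and the one left of -0.1 lies at 0.37.

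WAT was the only tissue in which members passed edgeR's test between genotypes or diets. In both comparisons with a call, the share of members called was below that of all genes, counting both directions. In CTRL mice, 3 of 77 members rose on HSD against chow (3.9%) and 0 fell, against 4.77% of 13255 tested genes called, 1.85% higher and 2.92% lower. Rpl38, a large subunit protein known in mice for its part in the translation of Hox mRNAs, had 943, 992, 784 and 790 TPM on HSD, against 725, 574, 818 and 608 TPM on chow. One chow library lay above the lower 2 HSD libraries. Its log2 fold change was 0.56 ± 0.13 (SE, adjusted p = 0.0283). Rps24, a small subunit protein mutated in Diamond-Blackfan anaemia in people, had 1559, 1392, 1205 and 1657 TPM on HSD, against 1278, 1263, 1415 and 1275 TPM on chow, and the groups overlapped. Its log2 fold change was 0.35 ± 0.09 (adjusted p = 0.0415). Rpl13, a large subunit protein, had 352, 318, 246 and 317 TPM on HSD, against 280, 210, 282 and 231 TPM on chow, with 1 HSD library among the chow libraries. Its log2 fold change was 0.46 ± 0.13 (adjusted p = 0.0464), and it shares 80.8% of its 31-base words with other genes.

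The rest of the members leaned the same way without passing. The mean was higher on HSD for 76 of 77, the median log2 fold change was 0.29 over members and -0.04 over all genes, and 43 members (55.8%) had an unadjusted p under 0.05, against 23.1% of all genes. DESeq2 called 19 members and 1218 genes in all, against 3 members and 632 genes with edgeR. The 2 chow libraries with a steep length slope, replicates 2 and 4, bear on these values: without them no member passed in edgeR, and neither did most other genes, with 9 called in the whole table. The median was then 0.13, with 71 of 77 higher, and the fold changes were 0.35 for Rpl38, 0.28 for Rps24 and 0.29 for Rpl13. With the length trend removed from every library and all libraries kept, 1 member (Rpl38) and 294 genes in all passed and the median was 0.21. Single libraries also moved the count: it was 22 without chow replicate 3 (1024 genes in all), 7 without chow replicate 1 (490 genes) and 1 without HSD replicate 4 (220 genes). It was 0 without chow replicate 2, chow replicate 4, HSD replicate 1 or HSD replicate 2, where 94 to 185 genes were called in all. On log2(TPM + 1) no member but 1463 genes passed, and the median was 0.16, against -0.17 over all genes. Across the 77 members Spearman's rho between the fold change and transcript length was -0.36, a description across genes that are not independent.

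**Figure D4:**
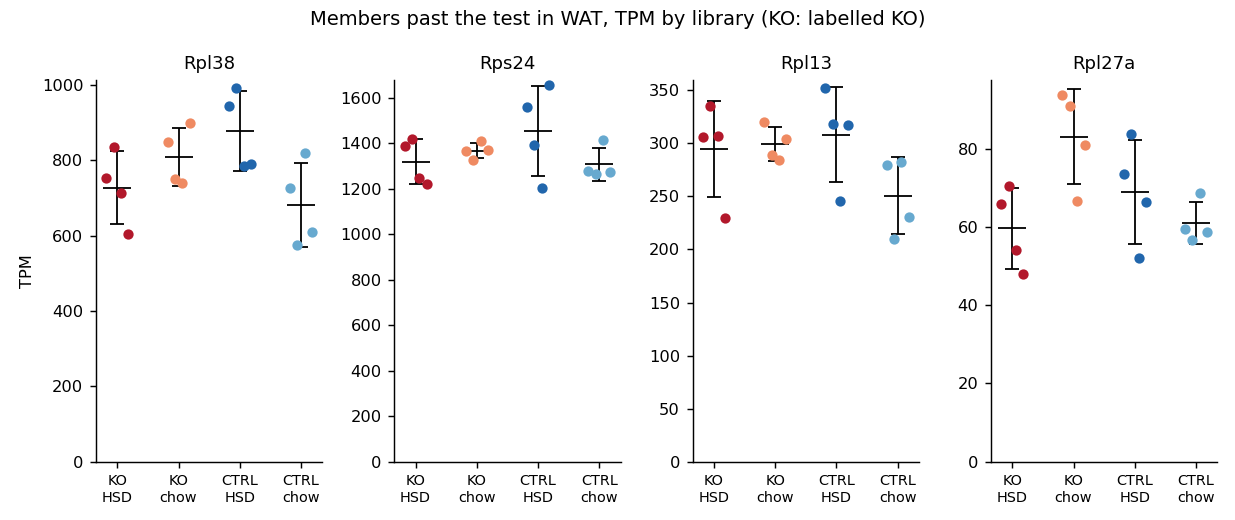
TPM in each WAT library of the 4 members that passed a test within WAT, Rpl38, Rps24, Rpl13 and Rpl27a. Points are libraries in the groups labelled KO on HSD, labelled KO on chow, CTRL on HSD and CTRL on chow, and bars are the group mean ± SD (n = 4). The groups compared overlap for all 4 genes, and CTRL libraries on chow include the lowest value of Rpl38 (574 TPM) and of Rpl13 (210 TPM).

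In labelled KO mice on chow against CTRL mice on chow, 1 of 77 members rose in WAT (1.3%), against 6.68% of tested genes called, 1.18% higher and 5.5% lower. It was Rpl27a, a large subunit protein, with 93.6, 90.9, 66.7 and 80.9 TPM in labelled KO mice, against 59.4, 56.7, 68.7 and 58.8 TPM in CTRL mice. The lowest labelled KO library lay below the highest CTRL library. Its log2 fold change was 0.49 ± 0.14 (adjusted p = 0.0478). The mean was higher for 74 of 77 members, with a median of 0.20 over members and 0.02 over all genes, and 14 (18.2%) had an unadjusted p under 0.05, against 23.2% of all genes. Only without labelled KO replicate 3 did the count stay at 1; it was 5 without CTRL replicate 3 (953 genes in all, against 885 with every library) and 0 without any other of the 8 libraries (325 to 775 genes). Without CTRL replicates 2 and 4 no member and 16 genes in all passed, the median was 0.03 and 54 of 77 were higher. This comparison and the one of diet in CTRL mice use the same 4 CTRL libraries on chow.

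The remaining WAT comparisons called no member. On HSD, labelled KO against CTRL had a median of -0.05 over members with 0 of 77 at an unadjusted p under 0.05, against 10.6% of all genes. By the adjusted p, 0.106% of all genes were called (0.0754% higher, 0.0302% lower), and DESeq2 called 0. In labelled KO mice, HSD against chow had a median of 0.04 and 3 members (3.9%) at an unadjusted p under 0.05, against 23.3% of all genes. By the adjusted p, 6.38% of all genes were called (2.7% higher, 3.68% lower), and DESeq2 called 1, Rpl3, which edgeR placed at 0.26 ± 0.09 (adjusted p = 0.0898). For Rpl38 the fold changes on HSD against chow were 0.56 in CTRL mice and -0.01 in labelled KO mice. The interaction of genotype and diet called 0 of 77 members, where 0.573% of all genes were called, with Rpl27a at -0.69 ± 0.20 (adjusted p = 0.101) and Rpl38 at -0.57 ± 0.19 (adjusted p = 0.132). The interaction was below 0 for 75 of 77 members with a median of -0.25, and 10 (13%) had an unadjusted p under 0.05, against 18.5% of all genes. Without the 2 sloped libraries its median was -0.08, and DESeq2 on all libraries called 1, Rpl27a, among 519 genes.

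**Figure D5:**
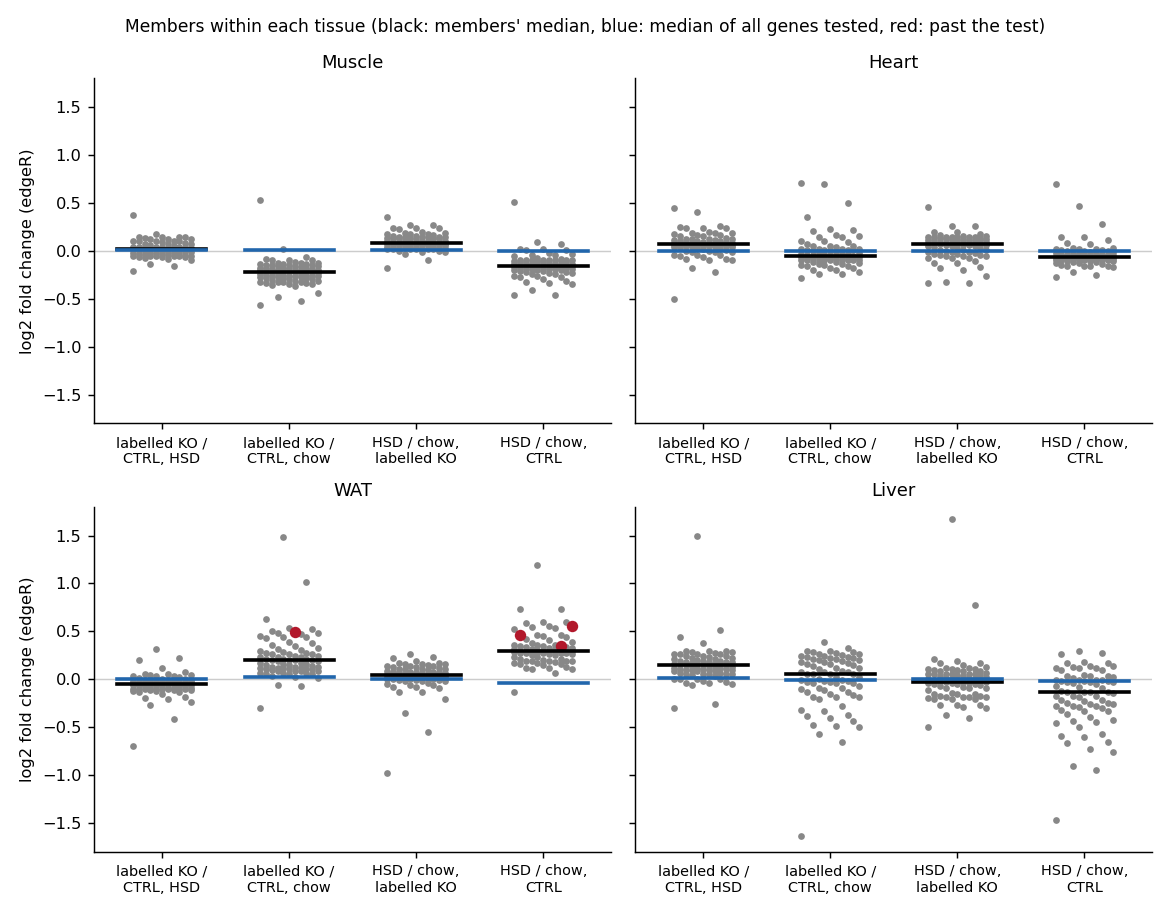
edgeR log2 fold change of each member in the 4 within-tissue comparisons of muscle, heart, WAT and liver. Grey points are members, red points the 4 calls, the black line is the members' median and the blue line the median of all genes tested. The black line lies farthest from the blue one in WAT on HSD against chow in CTRL mice (0.29 against -0.04) and in muscle of labelled KO against CTRL mice on chow (-0.22 against 0.01).

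Few other genes of the ribosome and its regulation passed in WAT. On HSD against chow in CTRL mice, none of the 7 ribosomal proteins outside the rule passed, with all 7 means higher (median 0.35) and Rpl36al at 0.37 ± 0.12 (adjusted p = 0.0818). Of 34 translation factors tested, 2 rose and 0 fell: Btf3, part of the complex that guards nascent chains, at 0.29 ± 0.07 (adjusted p = 0.0285) and Eif3i, an initiation factor subunit, at 0.33 ± 0.09 (adjusted p = 0.0482). Of 40 biogenesis factors, 1 rose, Nop16 at 0.51 ± 0.10 (adjusted p = 0.0165), and of 15 regulators 1 rose, Cnbp at 0.29 ± 0.08 (adjusted p = 0.042). For labelled KO against CTRL on chow, 1 translation factor fell (Eif3a), 1 biogenesis factor rose (Nop16) and 1 fell (Ddx21), and 3 regulators fell: the transcription factor Sp1 at -0.53 ± 0.09 (adjusted p = 0.00363), Larp4 at -0.60 ± 0.15 (adjusted p = 0.0285) and Larp4b at -0.35 ± 0.09 (adjusted p = 0.034).

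Markers of other cells moved in the same WAT libraries. The 5 endothelial markers summed to 166 to 205 TPM in CTRL mice on HSD and 247 to 364 TPM in CTRL mice on chow, with no overlap, and all 5 fell in edgeR (median -0.63), Pecam1 at -0.63 ± 0.12 (adjusted p = 0.0137). Of 6 macrophage markers 2 fell, Itgax at -1.51 ± 0.26 (adjusted p = 0.00656) and Cd68 at -0.76 ± 0.19 (adjusted p = 0.034), and their sums were 555 to 1027 TPM on HSD and 786 to 1087 TPM on chow. Of 5 adipocyte markers 1 fell, Lep at -0.94 ± 0.23 (adjusted p = 0.0355), with sums of 28744 to 35912 TPM on HSD and 29759 to 38307 TPM on chow. In labelled KO mice the endothelial sums were 213 to 227 TPM on HSD and 299 to 376 TPM on chow, again with no overlap. The members' median log2 fold change of HSD against chow in those mice was 0.04, against 0.00 over all genes. For labelled KO against CTRL on chow, the hepatocyte markers Ttr at 3.67 ± 0.91 (adjusted p = 0.0257) and Alb at 2.45 ± 0.68 (adjusted p = 0.0447) rose in WAT and Cyp2e1 fell, while the 5 summed to 1703 to 2779 TPM in labelled KO mice and 2170 to 3741 TPM in CTRL mice. The part of these shifts in the members' values was not tested.

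In muscle no member passed in any comparison. For labelled KO against CTRL on chow, where no gene of the whole table was called (0%), the mean was lower for 76 of 78 members, the median log2 fold change was -0.22 over members and 0.01 over all genes, and 27 members (34.6%) had an unadjusted p under 0.05, against 11.3% of all genes. DESeq2 called 0. Rpl11, which binds Mdm2 together with Rpl5, had 90.2, 95.6, 130 and 111 TPM in labelled KO mice, against 136, 127, 118 and 140 TPM in CTRL mice. The groups overlapped, and its log2 fold change was -0.35 ± 0.10 (adjusted p = 0.32). Rpl37 was at -0.36 ± 0.12 (adjusted p = 0.343). Without CTRL replicate 1, the library whose length slope was -0.1549, the median was -0.12 and 9 of 78 means were higher. Without the labelled KO library that held heart muscle markers it was -0.20.

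The other muscle comparisons called few genes of any kind. HSD against chow in CTRL mice had a median of -0.16 with 71 of 78 members lower, where 0.091% of all genes were called. Rpl14, a large subunit protein, had 126, 132, 129 and 131 TPM on HSD, against 168, 170, 119 and 156 TPM on chow, with 1 chow library below all HSD libraries, and its log2 fold change was -0.32 ± 0.09 (adjusted p = 0.126 by edgeR). DESeq2 called it, the only member it called in muscle, and 5 members (6.41%) had an unadjusted p under 0.05, against 14.9% of all genes. Without CTRL chow replicate 1 the median was -0.04. In labelled KO mice HSD against chow had a median of 0.08, with 1 member (1.28%) at an unadjusted p under 0.05, against 8.39% of all genes, and 0.00827% of all genes called. On HSD, labelled KO against CTRL had a median of 0.02, likewise with 1 such member, against 5.16% of all genes, and no gene was called (0%). The interaction, for which no gene was called either (0%), was above 0 for 76 of 78 members with a median of 0.24, and 0.14 without the sloped library. Of the members 11 (14.1%) had an unadjusted p under 0.05, against 7.88% of all genes.

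In heart no member passed in edgeR or in DESeq2. The medians were 0.07 for labelled KO against CTRL on HSD, -0.05 for labelled KO against CTRL on chow, 0.07 for HSD against chow in labelled KO mice, -0.06 for HSD against chow in CTRL mice and 0.11 for the interaction. In the same order 1.28%, 2.56%, 5.13%, 1.28% and 0% of members (1, 2, 4, 1 and 0 of 78) had an unadjusted p under 0.05, against 5.44%, 3.68%, 7.43%, 6.16% and 4.78% of all genes, so the members' share was the lower in each. By the adjusted p, 0.0412%, 0%, 0.14%, 0.0247% and 0.00824% of all genes were called. The first of these was made up of 0.00824% higher and 0.033% lower. Rpl3 had the smallest p, with 63.5, 73.4, 80.7 and 87.4 TPM in labelled KO mice on chow, against 91.7, 81.5, 98.2 and 82 TPM in CTRL mice on chow. The groups overlapped, and its log2 fold change was -0.24 ± 0.07 (adjusted p = 1).

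In liver, where Pklr is expressed, no member passed in edgeR either. The medians were 0.15 for labelled KO against CTRL on HSD, 0.05 for labelled KO against CTRL on chow, -0.03 for HSD against chow in labelled KO mice, -0.13 for HSD against chow in CTRL mice and 0.12 for the interaction. In the same order 11.7%, 15.6%, 1.3%, 7.79% and 1.3% of members (9, 12, 1, 6 and 1 of 77) had an unadjusted p under 0.05, against 5.86%, 12.2%, 10%, 21.3% and 8.7% of all genes. By the adjusted p, 0.0711%, 0%, 0.00888%, 4.67% and 0% of all genes were called. The first of these was 0.0178% higher and 0.0533% lower, and the fourth 2.48% higher and 2.19% lower. Rps27 had 847, 864, 1004 and 948 TPM in labelled KO mice on HSD, against 720, 661, 647 and 853 TPM in CTRL mice on HSD. The 2 groups overlapped by 1 CTRL library, and the log2 fold change was 0.38 ± 0.12 (adjusted p = 0.36). Rpl30, a large subunit protein, had 258, 312, 276 and 304 TPM in labelled KO mice on chow, against 266, 264, 240 and 222 TPM in CTRL mice on chow, and was at 0.39 ± 0.11 (adjusted p = 0.197 by edgeR). DESeq2 called it, the only member it called in liver. On HSD against chow in CTRL mice, where 526 genes were called, the smallest p belonged to Rps26, a small subunit protein, with 78.8, 59.6, 22.7 and 41.3 TPM on HSD, against 121, 67.4, 76 and 87.6 TPM on chow, at -0.91 ± 0.33 (adjusted p = 0.127). Its lowest value was in HSD replicate 3, the library with a length slope of 0.1421, and without that library the medians were 0.02 for labelled KO against CTRL on HSD and -0.02 for HSD against chow in CTRL mice.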

How the data were processed

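RNA-seq libraries of muscle, heart, WAT and liver were quantified by the authors with kallisto on GRCm38, per the submitters' processing notes. Tool versions and the transcript index are unknown here. The deposited estimated counts and the deposited TPM values per gene were used as they stand, with the estimated counts rounded to whole numbers. Library totals ran from 5724366 to 12188623 estimated counts, and p-values rest on the spread between the 4 libraries per group. The members and gene lists were chosen with earlier results of these data known, and the genes named were paralogue pairs, stalk proteins, Rpsa, Rps6, Rpl5, Rpl11, the 3 highest and lowest per tissue, up to 6 members per direction with the smallest p (2 where none passed) and up to 3 genes per list. Rps12 was added after its values were seen.

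Each tissue was fitted on its 16 libraries with edgeR 4.0.16 (R 4.3.3; filterByExpr with a minimum count of 10, TMM, quasi-likelihood test, Benjamini-Hochberg threshold 0.05), and tissues were compared on all 64 libraries. The tissue comparisons treated the libraries as independent, although a mouse may have given more than 1 tissue. Alternatives were DESeq2 1.42.0, its size factors, TMM without members and mitochondrial genes, no filter, limma 3.58.1 on log2(TPM + 1), removal of a length trend (loess, span 0.5), and leaving out libraries. The pipeline was tested on simulated data. Of 96 pairs of libraries within groups none was identical. Some genes that the naming rule selects are not reported here.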

Additional observations from a re-analysis of the deposited data

Results flagged for a closer look

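A library is listed here where it stood far from the other 3 of its group, by Dixon's criterion for groups of 4. This was so in 16 of 272 groups tested, and chance alone gives about 5%. In liver, Rps16 was 11.4 TPM in labelled KO on chow replicate 4 (others 1.83 to 3.45), Rplp2 was 93.1 TPM in labelled KO on HSD replicate 4 (others 135 to 142), Rpl27a was 42.7 TPM in CTRL on HSD replicate 1 (others 32.7 to 33.6) and Rps27l was 343 TPM in CTRL on chow replicate 2 (others 281 to 288). In WAT, both flags were in CTRL on chow: Rps24 was 1415 TPM in replicate 3 (others 1263 to 1278) and Rps12 was 64.1 TPM in replicate 1 (others 21.7 to 27). In heart, Rplp2 was 49.9 TPM in labelled KO on HSD replicate 4 (others 161 to 172), Rpl3 was 66.6 TPM in CTRL on HSD replicate 4 (others 83.6 to 83.9) and Rpl13 was 108 TPM in CTRL on chow replicate 4 (others 125 to 128).

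In muscle, labelled KO on HSD replicate 1 stood apart for Rpl10 at 215 TPM (others 150 to 156) and for the members' share of TPM at 3.12% (others 2.94 to 2.97%), and CTRL on HSD replicate 3 had Rpl10 at 87.2 TPM (others 135 to 144). With the pseudogene Rpl10-ps3 added to Rpl10, labelled KO on HSD replicate 1 was at 495 TPM (others 520 to 548). On that sum CTRL on HSD replicate 3 was at 483 TPM (others 466 to 496). CTRL on chow replicate 1, the library with a length slope of -0.1549, stood apart for Rps27l at 168 TPM (others 133 to 135), Rps13 at 493 TPM (others 320 to 340) and the members' share at 3.86% (others 3.02 to 3.05%). CTRL on chow replicate 3 had Rplp0 at 913 TPM (others 802 to 808).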

How the results depend on the processing

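The members called between tissues kept their number within 1.5 times under every alternative run, but on log2(TPM + 1) WAT against liver turned round, with a median of 1.04 and with Rpl4 at 0.49, Rpl7a at 0.40, Rpl7 at 0.70, Rpl23 at 0.60, Rps27a at 0.49 and Rpl3 at 1.01. The count for HSD against chow in CTRL WAT was 3, with 632 genes called in all. It was 5 with DESeq2's size factors (641 genes in all), 5 with TMM without members and mitochondrial genes (617) and 1 without the filter (420). With DESeq2 it was 19 (1218 genes in all), with limma 0 (1463) and with the length trend removed 1 (294). Without the libraries of steep length slope it was 0 (9 genes in all), and with 1 library left out 0 to 22. For labelled KO against CTRL on chow in WAT the count was 1, with 885 genes called in all. It was 0 without the filter (701 genes in all), with limma (640), with the trend removed (432) and without the sloped libraries (16). With 1 library left out it was 0 to 5. DESeq2 called 1 member in place of 0 in liver (labelled KO against CTRL on chow, 153 genes in all). It also did so in WAT (HSD against chow in labelled KO, 1404 genes in all, and the interaction, 519) and muscle (HSD against chow in CTRL, 300). Leaving out 1 library gave 0 to 1 in the WAT interaction and in muscle on HSD against chow in CTRL. Where 1 was called, 221 and 90 genes were called in all. Uncalled values near 0 changed sign: Rpl3 in muscle was 0.02 for labelled KO against CTRL on chow without the sloped library, and its interaction was -0.02 with limma, -0.01 with the trend removed and -0.04 without that library. With 1 library left out, Rpl3 ranged from -0.15 to 0.02 (muscle, labelled KO against CTRL on chow), -0.08 to 0.00 (muscle, on HSD), -0.04 to 0.13 (muscle, interaction) and -0.07 to 0.02 (heart, HSD against chow in CTRL), and Rpl3l from -0.01 to 0.12 (muscle, labelled KO against CTRL on HSD), -0.01 to 0.10 (muscle, HSD against chow in labelled KO), -0.09 to 0.05 (heart, labelled KO against CTRL on chow) and -0.13 to 0.03 (heart, HSD against chow in labelled KO). The causes were not tested. With the title number as a replicate block, tissue comparisons called 62 members (heart against liver), 58 (muscle against liver), 67 (WAT against liver) and 75 (muscle against heart). In the same order 12227, 12404, 12479 and 10111 genes were called in all, against 12185, 12348, 12420 and 10002 without the block. Same-numbered libraries correlated above 0.1 in 23 of 96 pairs (-0.0516 to 0.214). Of 192 library and tissue pairs, 130 correlated best with their own number among the 4 libraries of the same group. A pick at random among those 4 would hit the own number in 1 of 4 pairs. The own number thus came up more often than at random. These values do not settle whether a number marks a mouse. Because the labels state no pairing, the main tissue tests did not pair the libraries.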
